A study of Mus musculus with 33 samples.

Results

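Collagen transcripts were followed in the spleens and lymph nodes of mice that drank nicotinamide (NAM), a form of vitamin B3. The members are the rows of the deposited expression table whose gene symbol is written Col, a number, a and a number, which gave 44 genes of 56414 rows. The 44 rows fall into 8 structural classes.

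C57Bl/6 mice without tumours were compared in 4 groups, untreated mice and mice whose drinking water held 0.5% NAM over 1, 3 or 14 days. RNA with a poly(A) tail was sequenced in paired-end mode from 20 libraries labelled spleen, 5 in each group, and from 13 labelled lymph node, of which 3 were untreated, 2 had NAM for 1 day and 4 each for 3 and 14 days. The question put to these libraries was how short NAM intake alters the lymphoid organs. The labels give neither the ages of single animals nor which animal gave which libraries, so each p-value below measures the spread between libraries.

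The tissue labels did not go with the marker genes of the tissues. Glycam1, made by the high endothelial venules of lymph nodes, lay between 108200 and 214200 normalised counts in the libraries labelled spleen and between 1.59 and 12.4 in those labelled lymph node. Spic, a transcription factor of the red pulp macrophages of the spleen, lay between 774 and 1295 in the former and between 6117 and 10490 in the latter. The labels are therefore kept as names only, "labelled spleen" and "labelled lymph node", and no collagen level here is assigned to an organ. The libraries held 18325061 to 54830743 reads (labelled spleen) and 30424968 to 46733974 reads (labelled lymph node). The 2 labels may have been scaled apart, so treatments were tested within a label and the labels are only described side by side. Normalised counts are reads divided by a size factor for each library.

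Collagens are secreted proteins in which 3 chains wind into a triple helix, and they form the scaffold of the stroma. Fibrillar collagens give tissues their tensile strength, type IV collagens form the sheet of basement membranes, type VI collagens form beaded microfilaments around cells, and the FACIT collagens sit on the surface of fibrils. In lymphoid organs collagens are made mainly by fibroblastic reticular cells, capsule fibroblasts, vessel wall cells and endothelium, whereas lymphocytes make little of them. Type I collagen is usually built from the products of Col1a1 and Col1a2, and type IV collagen of most vessels from those of Col4a1 and Col4a2, so that paired chains are commonly transcribed together.

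The start of the Col4a1 and Col4a2 rows shows this pairing in the genome. The 2 genes lie head to head on chromosome 8, Col4a1 on the minus strand (chr8:11198424-11312826) and Col4a2 on the plus strand (chr8:11312805-11449287, GRCm38), and their rows share 22 bases at chr8:11312805-11312826. Col4a4 and Col4a3 are arranged in the same way with 70 bases between their rows, and Col4a6 and Col4a5 with 1340 bases between theirs. The shared stretch is printed because it marks the common start region of the most abundant type IV pair, with capitals on a GGGCGG match. The 250 bases upstream of Col1a2 (chr6:4505368-4505617, plus strand) and of Col3a1 (chr1:45311288-45311537, plus strand) are printed because these genes gave the highest fibrillar levels per length. Capitals mark a CCAAT match 109 bases before the start in Col1a2 and a TATAAA match 117 bases before the start in Col3a1. All 3 are RefSeq sequences of GRCm38.p6, written 5′ to 3′ on the plus strand.
Col4a1 and Col4a2 shared stretch: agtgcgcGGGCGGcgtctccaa
Col1a2 upstream: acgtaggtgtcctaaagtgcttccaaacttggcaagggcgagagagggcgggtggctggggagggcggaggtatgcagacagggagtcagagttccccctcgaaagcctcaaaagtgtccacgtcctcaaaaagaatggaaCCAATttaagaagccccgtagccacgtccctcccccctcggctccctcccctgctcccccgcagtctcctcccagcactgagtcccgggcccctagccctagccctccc
Col3a1 upstream: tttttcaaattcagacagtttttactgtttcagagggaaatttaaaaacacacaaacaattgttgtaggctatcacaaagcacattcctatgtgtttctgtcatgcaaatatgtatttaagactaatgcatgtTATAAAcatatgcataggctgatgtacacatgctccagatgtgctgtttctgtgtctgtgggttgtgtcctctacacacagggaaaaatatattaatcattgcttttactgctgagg
The Col1a2 stretch also held GGGCGG matches 205 and 188 bases before the start, on the plus strand. Promoter entries matched 35 of the 44 genes by symbol, with 38 windows. Over both strands, TATAAA was found in 5 of these windows (13.2%) against 12.4% of all 32851 windows, CCAAT in 13 (34.2%) against 33.9%, and GGGCGG in 22 (57.9%) against 32.7%. The motifs do not overlap one another in their letters, and a match is a description of the sequence only.

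The levels of the major chains in untreated libraries are given first as normalised counts, which are not divided by gene length and so are compared between libraries only. Under the spleen label Col3a1, the homotrimeric fibrillar chain of reticular fibres (chr1:45311538-45349852, plus strand), had 13630 ± 11920 normalised counts (SD, n = 5) and Col1a2 (chr6:4505618-4541543, plus strand) had 9287 ± 5854. Col1a1, the other chain of type I collagen (chr11:94936224-94953040, plus strand), had 9082 ± 6795, and Col4a2 had 8485 ± 2595. In the untreated libraries labelled lymph node Col4a2 stood at 3450 ± 327 (SD, n = 3), Col3a1 at 2624 ± 531, Col1a2 at 2546 ± 244 and Col14a1, a FACIT collagen, at 1968 ± 187. The SDs of Col3a1 and Col1a2 were far wider under the spleen label.

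For comparison between genes, counts were divided by the length of the longest coding transcript, in normalised counts per 1000 bases. The lengths of the regions the authors counted are not given in the sources used here, so this ranking is approximate. Col3a1 led the fibrillar class in the libraries labelled spleen with 2449 ± 2142 per 1000 bases, Col4a2 led the type IV class with 1315 ± 402, and Col6a1, one of the chains of type VI collagen, led its class with 898.5 ± 371. The leading FACIT gene there was Col16a1 with 180 ± 108, and Col18a1, a basement membrane collagen whose C-terminal fragment is endostatin, led the multiplexins with 298 ± 184. The remaining classes were led by Col13a1 (42.2 ± 22.9), a transmembrane collagen of cell adhesions, Col28a1 (33.8 ± 4.98) and Col8a1 (31.6 ± 32.3), a network-forming collagen of vessel walls. Under the lymph node label Col4a2 had 535 ± 50.7 per 1000 bases, Col1a2 476 ± 45.6 and Col3a1 472 ± 95.4, gaps that lay within about the spread of these genes, and Col14a1 had 305 ± 28.9. Col8a2, the partner of Col8a1, reached 122 ± 20.5, Col6a1 102 ± 4.72, Col18a1 81.1 ± 10.8, Col13a1 31.2 ± 8.48 and Col28a1 23.9 ± 3.16 per 1000 bases. At the low end, none of the 44 genes was at 0 in every library. A mean of at least 10 normalised counts was reached by 38 genes in the libraries labelled spleen, by 36 in those labelled lymph node and by 35 in both, and 5 genes fell below it under both. The genes below it under the spleen label were Col9a1, Col19a1, Col10a1, Col2a1, Col25a1 and Col24a1, and under the lymph node label Col9a1, Col4a3, Col4a4, Col10a1, Col2a1, Col11a1, Col25a1 and Col24a1. Of the genes known from cartilage, Col2a1, Col9a1 and Col10a1 were below it under both labels and Col11a1 under the lymph node label only. Col9a2, Col9a3 and Col11a2 were above it under both. Strand use in the authors' counting is not given in the sources used here, so reads of overlapping genes may be shared, which touches Col4a1 with Col4a2 and Col18a1 with Slc19a1.

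**Figure D1:**
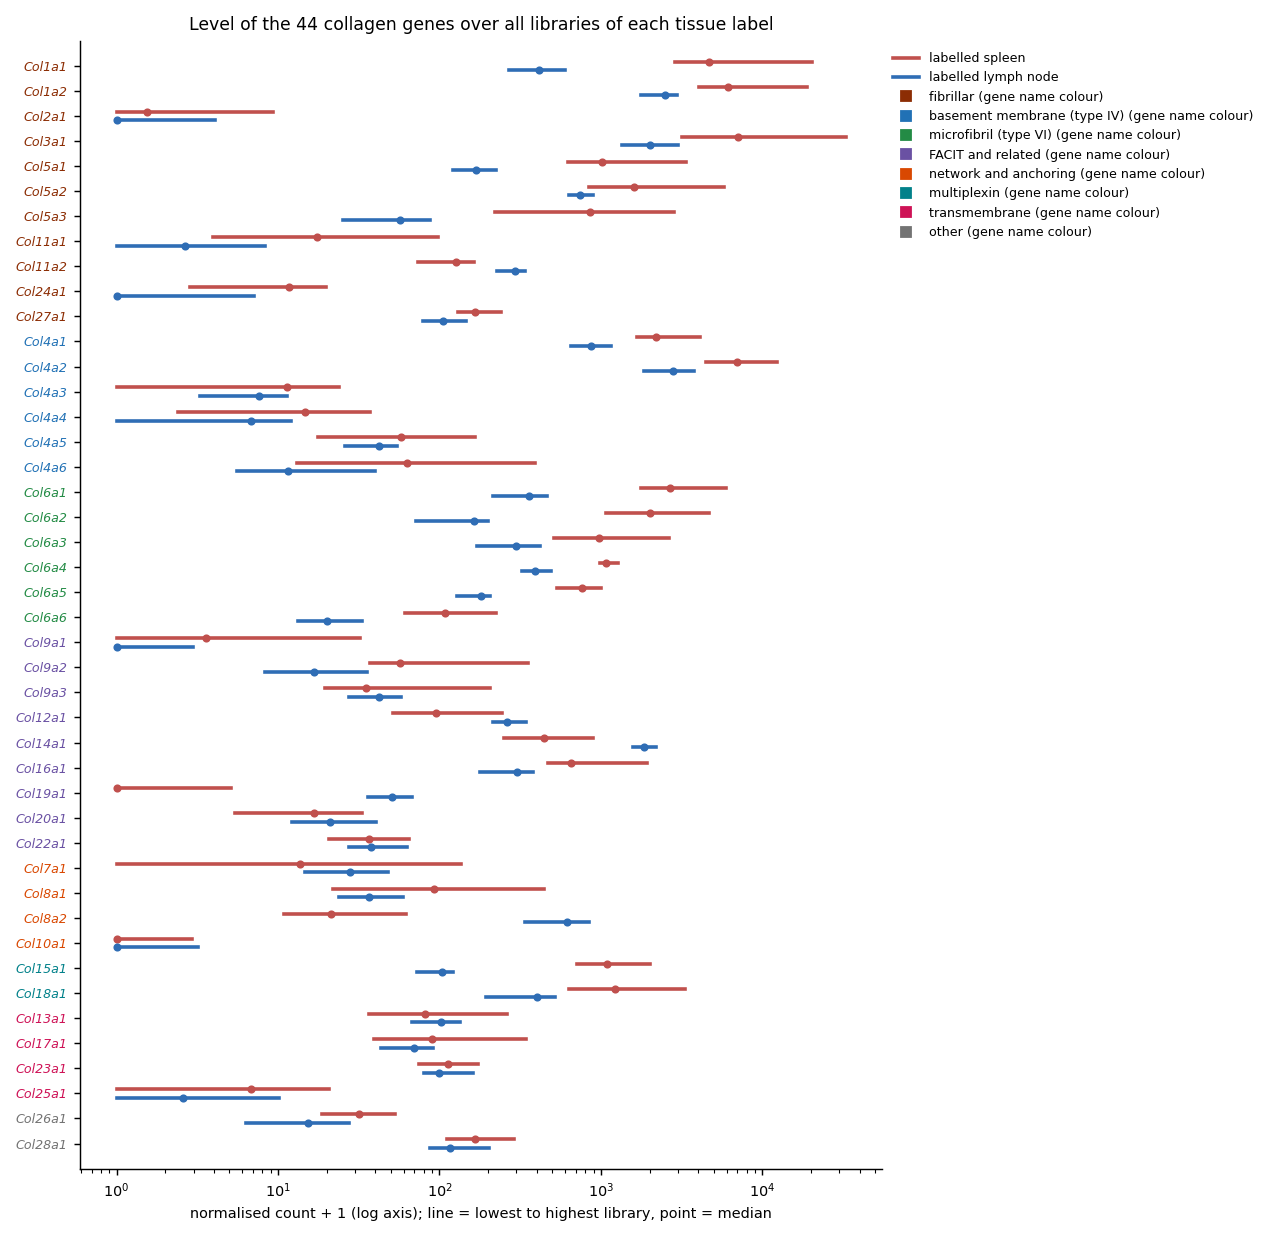
Normalised count (log axis, 1 added) of each of the 44 genes, with a point at the median and a line from the lowest to the highest library of each tissue label (20 labelled spleen, 13 labelled lymph node), ordered by class. Most fibrillar, type IV and type VI genes lie higher under the spleen label, whereas Col14a1, Col8a2, Col11a2 and Col19a1 lie higher under the lymph node label.

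Collagen made up a larger share of the RNA under the spleen label. The 44 genes took 0.215% of all reads in its untreated libraries (SD 0.135, range 0.0945 to 0.431%) and 0.0502% (SD 0.00542) in the untreated libraries labelled lymph node. Over all libraries the means were 0.171% and 0.0444%. A share of reads needs no scaling between the labels, and in whole tissue RNA fewer collagen-making cells cannot be told apart from less collagen RNA per cell. Of the 35 genes tested under both labels, 17 were above every lymph node library in each of the 20 spleen libraries, where 13.1% of all 17147 genes tested under both were, and 3 were below, where 19.1% of all genes were. The 3 were Col14a1, Col11a2 and Col8a2. The median spleen to lymph node ratio of the untreated means was 2.72 over the 35 genes and 0.901 over all genes.

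The gap between the labels was uneven among the chains. Folds between the labels are of normalised counts and would shift together if the labels were scaled apart. Col1a1 was 18.1-fold higher in untreated libraries labelled spleen, whereas Col1a2, its partner in type I collagen, was 3.65-fold higher and Col3a1 5.19-fold higher. The spleen means include untreated library 5, which was the highest untreated library for 29 of the 38 genes tested under that label. Col5a3 was 18.8-fold and Col5a1 8.69-fold higher, both chains of type V collagen, which regulates fibril width. Col6a2 was 16.7-fold, Col6a1 8.84-fold and Col15a1, a basement membrane multiplexin, 11.7-fold higher. The type IV chains differed least among the abundant genes, with Col4a2 at 2.46-fold and Col4a1 at 2.36-fold. In the other direction Col8a2 was 21.9-fold, Col14a1 3.66-fold, Col11a2 2.27-fold and Col12a1, a FACIT collagen, 2.01-fold higher under the lymph node label. Col19a1, another FACIT collagen, was listed at 0 in all 5 untreated libraries labelled spleen and at 50, 35.3 and 66.3 in the untreated libraries labelled lymph node.

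The make-up of the collagen reads differed as well. Fibrillar genes took 51.7% of the reads of the 44 genes over the libraries labelled spleen (range 41 to 66.3%) and 40.5% over those labelled lymph node (38.3 to 43.9%). Type VI genes took 17.4% and 8.89%, with ranges of 10.5 to 21.9% and 8.08 to 9.43% that did not overlap. FACIT genes took 3.18% (2.2 to 4.36%) in libraries labelled spleen against 16.9% (14.2 to 19.1%) in those labelled lymph node, and the network and anchoring class took 0.362% (0.115 to 0.784%) and 4.3% (2.65 to 5.5%). These 2 classes also did not overlap, and most of their lymph node reads came from Col14a1 (12.2% of collagen reads) and Col8a2 (3.86%). Type IV genes took a like share in both, 21.2% and 23.7%. Multiplexins took 5.07% and 2.99%, transmembrane collagens 0.671% and 1.8%, and the other collagens 0.458% and 0.903%. Single genes did not all follow their class. Col1a1 took 11.3% of collagen reads under the spleen label against 2.65% under the lymph node label, whereas Col1a2 took 14.2% and 15.7%, Col4a2 15.8% and 17.7%, and Col3a1 17.5% and 13.4%.

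**Figure D2:**
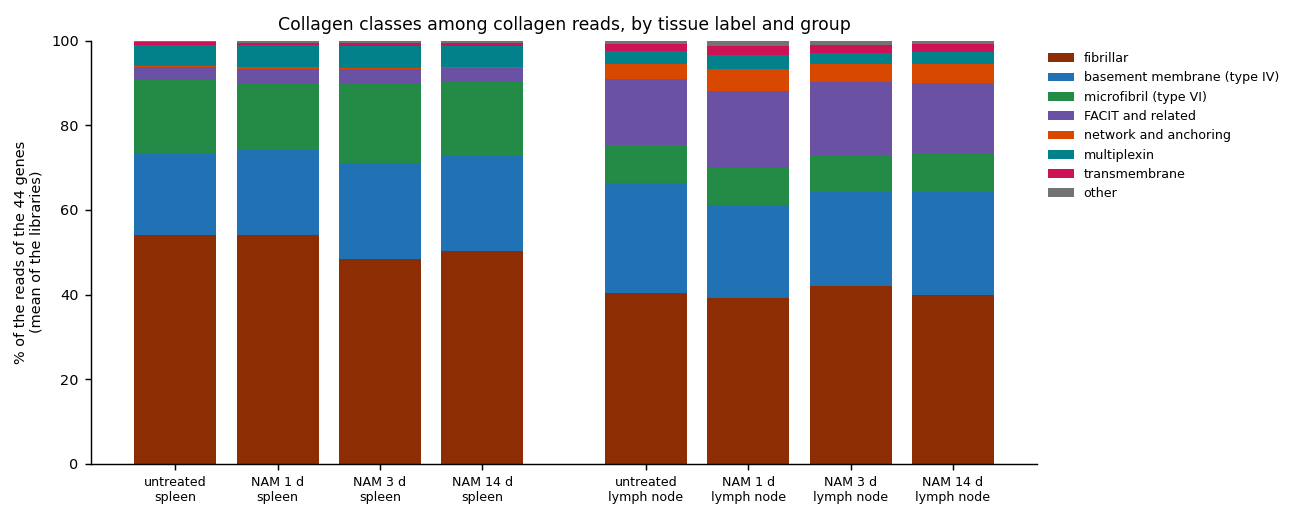
Share of the reads of the 44 collagen genes (y axis, %, mean of the libraries of a group) taken by each of the 8 classes, for the 4 groups of each tissue label (x axis). Fibrillar and type VI genes take more under the spleen label, FACIT and network genes more under the lymph node label.

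The ratio of 2 chains within a library does not depend on the scaling of that library. Without treatment Col1a1 to Col1a2 stood at 0.924 ± 0.121 (SD, n = 5) under the spleen label and at 0.197 ± 0.0255 (n = 3) under that of lymph node, and over all groups the ranges were 0.655 to 1.08 and 0.141 to 0.226. Col6a1 to Col6a2 was 1.31 ± 0.145 and 2.41 ± 0.164, with ranges of 1.14 to 1.64 and 1.9 to 3.2 over all groups. Neither pair overlapped between the labels. By contrast Col4a1 to Col4a2 was 0.295 ± 0.00962 and 0.308 ± 0.0276, which lay within the spread of the lymph node libraries. In the same untreated libraries the ratio of Col5a1 to Col5a2 was 0.731 ± 0.201 and 0.246 ± 0.0313, that of Col3a1 to Col1a1 1.37 ± 0.277 and 5.24 ± 0.724, and that of Col6a3 to Col6a1 0.386 ± 0.0663 and 0.888 ± 0.158, for the spleen and lymph node labels respectively.

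**Figure D3:**
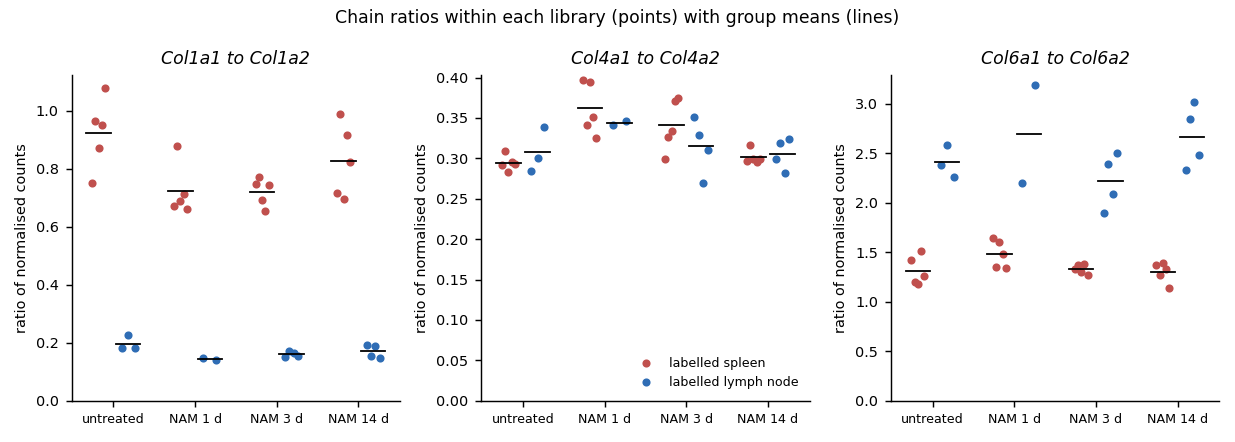
Ratio of normalised counts of Col1a1 to Col1a2, Col4a1 to Col4a2 and Col6a1 to Col6a2 (y axes) in every library (points) of each group (x axis), with lines at group means. The labels separate for the type I and type VI pairs and overlap for the type IV pair.

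Collagen levels varied widely between replicate libraries labelled spleen. The summed normalised count of the 44 genes was 30000, 76600, 41850, 48280 and 126500 in the 5 untreated libraries and 30560, 109900, 37630, 47800 and 42900 in the 5 libraries at 1 day. At 3 days it was 41890, 41860, 38760, 27450 and 44700, and at 14 days 32090, 78710, 32670, 69560 and 46190. Untreated library 5 and library 2 at 1 day thus stood far above the rest, and the libraries at 3 days lay closest together. Of the 38 tested genes, 29 were highest in untreated library 5 among the untreated, 32 in library 2 at 1 day, 23 in library 2 at 14 days and 17 in library 1 at 3 days. The median coefficient of variation over the genes was 50.2% without NAM and 45.1, 21.7 and 39.3% after 1, 3 and 14 days of it in libraries labelled spleen, against 14.5, 11.7, 22 and 17.7% in those labelled lymph node.

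Some markers of other cell types were also high in these libraries. The summed level of 8 adipocyte genes lay between 39190 and 213500 normalised counts in untreated libraries labelled spleen and between 130500 and 556700 at 1 day, with library 2 the highest of each of these groups, so that the adipocyte sum did not peak in untreated library 5. At 3 and 14 days it lay between 64010 and 253800 and between 53980 and 270000, and in all libraries labelled lymph node between 361 and 1468. Epithelial markers summed to 924 to 6518 in untreated libraries labelled spleen, with library 5 the highest, and to 2702 to 14940 at 1 day, with library 2 the highest. Across the 20 libraries labelled spleen the adipocyte score and Col1a1 had a Pearson r of 0.54 (permutation p = 0.0137, adjusted p = 0.0137) and a Spearman rho of 0.56 (permutation p = 0.0111, adjusted p = 0.0127). Without the 2 libraries farthest from the median score r was 0.37 (permutation p = 0.129), so the pooled relation was weaker, with fewer libraries and a narrower range of scores. Deviations from the group means over all 20 libraries had r = 0.76 (permutation p = 0.00014). Of the 8 adipocyte genes 4 did not reach a mean of 10 normalised counts under the lymph node label, so the score there rests in part on counts near 0. Across these 13 libraries r was 0.70 (permutation p = 0.00815, adjusted p = 0.00931) and rho 0.65 (permutation p = 0.019, adjusted p = 0.019), and r was 0.54 (permutation p = 0.0891) without the 2 farthest and 0.73 (permutation p = 0.00463) over the deviations. The summed level of 6 vessel wall markers lay between 28990 and 35310 in untreated libraries labelled spleen and between 24940 and 38660 at 1 day, and was highest in untreated library 5 and in library 2 at 1 day, the same libraries that were high in collagen. The sum of 7 markers of fibroblasts and lymphoid stroma, much of it the chemokine Ccl21a, was highest in untreated library 1 and in library 5 at 1 day. The part of surrounding fat, epithelium and vessel wall in the collagen levels was not tested.

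The collagen pairs looked at varied together across libraries. Under the spleen label Col1a1 and Col1a2 had r = 0.98 and rho = 0.94, Col4a1 and Col4a2 r = 0.93 and rho = 0.89, and Col1a1 and Col4a1 r = 0.88 and rho = 0.85 (n = 20). Each of these had a permutation p = 1e-05, the smallest that the resamples can give (adjusted p = 2.667e-05), and without the 2 farthest libraries r was 0.97, 0.89 and 0.80. Under the lymph node label (n = 13) the same pairs had r of 0.80, 0.91 and 0.87 with rho of 0.80, 0.93 and 0.87 (permutation p = 0.00087, 5e-05 and 0.00017 for r and 0.0017, 2e-05 and 0.00027 for rho, largest adjusted p = 0.00227), and r of 0.76, 0.88 and 0.77 without the 2 farthest. The points of each pair share their library, group and scaling, so these values are descriptions. The correlations were computed over 8 relations in all.

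**Figure D4:**
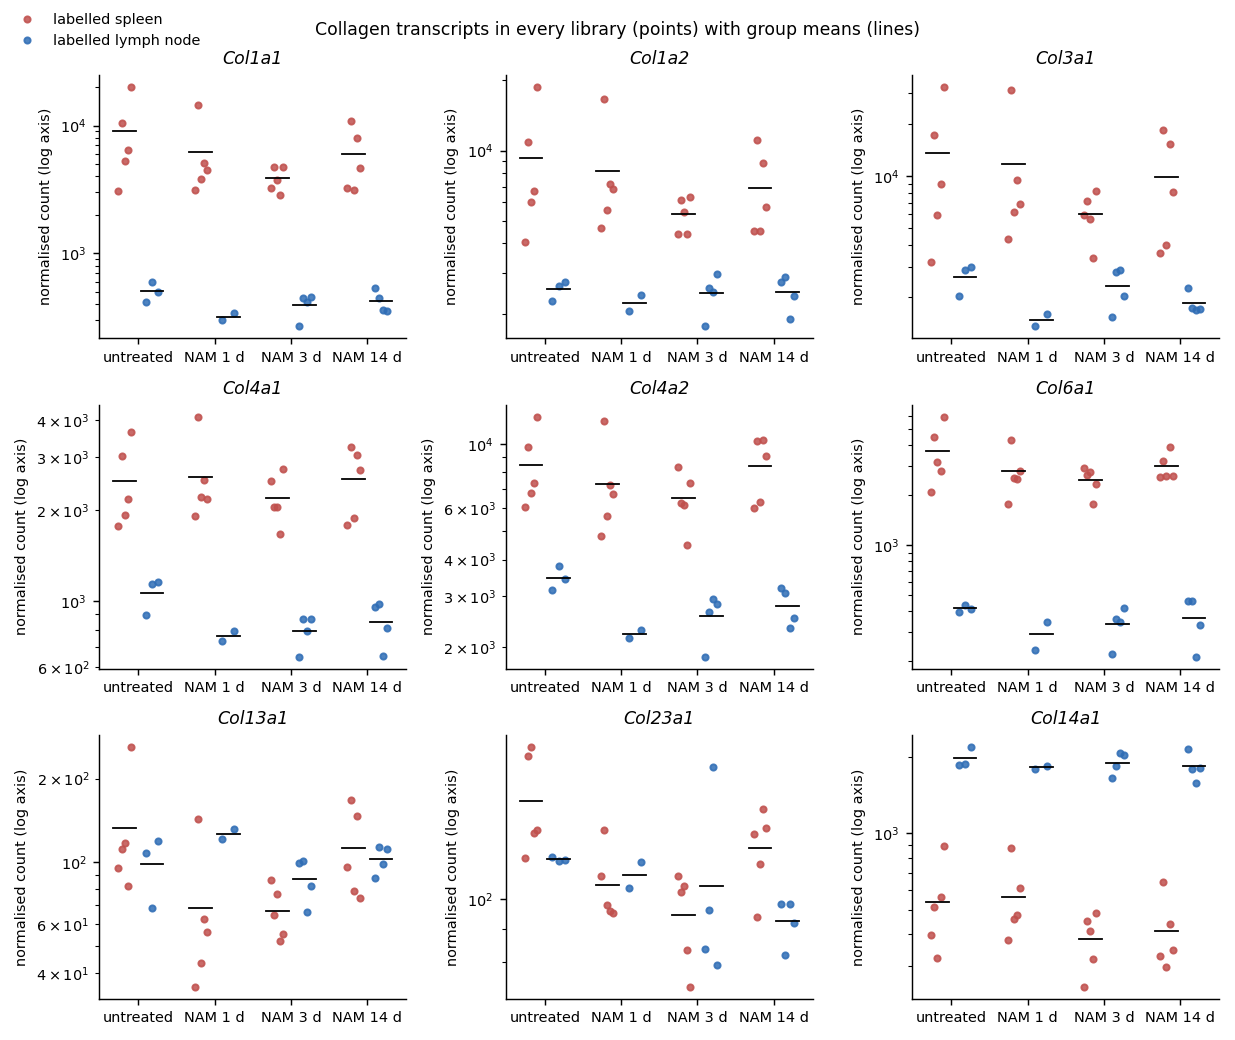
Normalised counts (y axes, log) of 9 collagen genes in every library (points) of the 4 groups (x axis) of each tissue label, with lines at group means. Untreated library 5 and library 2 at 1 day stand highest in most of the spleen panels, and Col14a1 is the only one of the 9 in which all lymph node libraries lie above all spleen libraries.

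After 1 day of NAM under the spleen label, Col13a1 was the only collagen gene that passed the test, and it fell. Its values were 95.2, 112, 117, 82 and 260 normalised counts in untreated libraries and 35.6, 144, 43.2, 62.5 and 55.9 at 1 day. Of the treated libraries 4 of 5 lay below every untreated one, and library 2 lay within the untreated range, so the groups overlapped. Col13a1 (chr10:61838234-61979108, minus strand) fell by 1.01 on the log2 scale (SE 0.34, limma adjusted p = 0.048), a fall of 48.9% in the mean. The count was 1 of 38 collagen genes against 16.6% of all genes tested, and none of the 38 was lower in all treated than in all untreated libraries, against 5.47% of all genes. Col13a1 lost its call without untreated library 1 (adjusted p = 0.0549), 2 (0.0674), 3 (0.0701) or 5 (0.136) and without 1-day library 1 (0.114), 3 (0.108), 4 (0.0761) or 5 (0.0772), and kept it only without untreated library 4 or 1-day library 2. Its log2 change in the fits that lost the call lay between -1.10 and -0.74. It also lost its call under edgeR on the recovered reads (log2 change -0.99, adjusted p = 0.0686), and, with the log2 change still at -1.01, with untreated and 1-day libraries fitted alone (adjusted p = 0.112), with the replicate block (0.0532) and without a filter on low genes (0.0774).

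The next collagens by p at 1 day were Col12a1 (log2 change -0.74, SE 0.25, limma adjusted p = 0.0504) and Col23a1, another transmembrane collagen (-0.42, SE 0.15, limma adjusted p = 0.0598). Col12a1 read 128, 140, 99.4, 92 and 245 normalised counts untreated and 77, 128, 73.9, 83.3 and 50.4 at 1 day, with 4 of 5 treated libraries below all untreated ones. The major fibrillar genes overlapped widely. Col1a1 read 3061, 10450, 5257, 6392 and 20250 normalised counts untreated against 3137, 14560, 3833, 5107 and 4505 at 1 day (log2 change -0.49, SE 0.45, limma adjusted p = 0.497). Col3a1 read 3174, 17200, 5966, 9023 and 32770 against 4312, 31320, 6226, 9476 and 6900 (-0.16, SE 0.59, limma adjusted p = 0.88). Each group held 1 library far above its other members. Among the basement membrane chains, Col4a2 read 6077, 9782, 6800, 7362 and 12400 against 4814, 11990, 5633, 7209 and 6708 (-0.25, SE 0.24, limma adjusted p = 0.512), and Col4a1 had a log2 change of 0.05 (SE 0.22). The fold change was below 0 for 24 of the 38 genes, with a median of -0.15 on the log2 scale, while the median of all genes was 0.01. All 3 network and anchoring genes had a log2 change above 0 and none passed the test, and for Col7a1, the anchoring fibril collagen, the mean count went the other way, from 36.2 untreated to 20.5 at 1 day.

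These results depended on the high libraries and on how the adipocyte signal entered the fit. edgeR called 1 collagen gene, Col12a1 (-0.78, edgeR adjusted p = 0.046), against 16.3% of all genes, and DESeq2 called 3, Col12a1, Col13a1 and Col23a1, all lower, against 18.5%. No collagen gene was called without the filter (7.1% of all genes), with the replicate block (16.7%) or with 2 groups alone (5.46% of all genes lower and 6.5% higher). By contrast 2 were with a filter of 50 (21.1%), 3 with quantile normalisation (16.7%) and 2 by a rule of unadjusted p and 1.5-fold (8.21%). With untreated library 5 and 1-day library 2 both left out, Col13a1 (-1.05, limma adjusted p = 0.0181) and Col12a1 (-0.69, adjusted p = 0.0461) were called, against 9.64% of all genes. With library weights 6 collagen genes were called, all lower, against 21.6% of all genes. With the adipocyte score as a covariate 13 collagen genes were called, all lower, against 21.1% of all genes, with log2 changes from -1.35 to -0.48. They included 5 fibrillar and 3 type VI genes, among them Col1a1 (-1.18), Col3a1 (-1.17), Col6a3 (-1.25) and Col4a2 (-0.65). The score lay between 11.1 and 13.5 in untreated libraries and between 12.9 and 15.1 at 1 day, so the groups overlapped, and the score itself was not tested. Of its 8 genes 1 was called, Retn, the adipokine resistin, which was higher by 1.61 (limma adjusted p = 0.04), against 16.6% of all genes, and the median of the 8 was 1.04 on the log2 scale, so treatment and adipocyte signal cannot be fully told apart in these libraries. Epithelial and erythroid markers also had medians of 1.04 each, with none called, whereas vessel wall and lymphoid stroma markers had -0.08 and -0.31. The part of these markers was not tested.

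After 3 days under the spleen label, Col23a1 fell without overlap between the groups. It read 116, 167, 172, 127 and 128 normalised counts untreated and 109, 103, 105, 83.5 and 73.3 at 3 days, so that 5 of 5 treated libraries were below all untreated ones. Col23a1 (chr11:51289920-51583901, plus strand) fell by 0.58 on the log2 scale (SE 0.15, limma adjusted p = 0.03), a fall of 33.3% in the mean. It was the only call among 38 collagen genes, against 5.55% of all genes, and the only one of them without overlap on the lower side, against 2.6% of all genes. The call was lost without untreated library 2 (adjusted p = 0.0754) or 3 (0.0642), without 3-day library 2 (0.0595), 3 (0.0647), 4 (0.0781) or 5 (0.104), with the untreated and 3-day libraries fitted alone (0.078) and without the filter (0.0523), with log2 changes between -0.62 and -0.49 when a library was left out and still -0.58 in the last 2. edgeR and DESeq2 on the recovered reads kept it (adjusted p = 0.0308 and 0.00608). edgeR called no other collagen gene (5.94% of all genes), and DESeq2 called 2, with Col13a1 the other (9.44%). None was called without the filter (1.65% of all genes) or with 2 groups alone (0.767%), and 3 were by the rule of unadjusted p and 1.5-fold (3.4%).

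None of the other collagens passed the test at 3 days. Col1a1 read 3261, 4748, 3773, 2879 and 4711 normalised counts, with 1 library below all untreated ones (log2 change -0.96, SE 0.45, limma adjusted p = 0.223). Col3a1 read 5929, 7172, 5622, 3375 and 8208, all of them within the untreated range (-0.77, SE 0.59, limma adjusted p = 0.482). Col1a2 had a log2 change of -0.61 (SE 0.36), Col5a1 -0.60 (SE 0.40), Col6a1 -0.50 (SE 0.24), Col4a2 -0.36 (SE 0.24) and Col4a1 -0.15 (SE 0.22), none of which passed. For Col6a1, Col4a2 and Col4a1 1 of 5 treated libraries lay below all untreated ones, and for Col1a2 and Col5a1 none did. Among classes, 8 of 9 fibrillar genes, 7 of 7 FACIT genes, 5 of 6 type VI genes and 5 of 6 type IV genes had a fold change below 0, with class medians of -0.52, -0.50, -0.39 and -0.25. In all, 32 of 38 were below 0 with a median of -0.33, where the median of all genes was 0.00066. All 38 were compared with the same 5 untreated libraries. Without untreated library 5 and 1-day library 2, the median was -0.18 and Col23a1 was the only call (-0.61, limma adjusted p = 0.0342), against 4.51% of all genes. With the adipocyte score as a covariate 12 collagen genes were called, all lower, against 12.2% of all genes, among them Col1a1 (-1.27, limma adjusted p = 0.00998) and Col3a1 (-1.22), and with library weights 9, all lower, against 25.9% of all genes.

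After 14 days under the spleen label no collagen gene passed the limma test, and 0.0% of all genes did. At an unadjusted p under 0.05 there was 1 collagen gene, against 2.8% of all genes. It was Col6a4, a type VI chain, with 1235, 1191, 1277, 1092 and 1240 normalised counts untreated and 1081, 1074, 986, 1067 and 1030 at 14 days. The groups did not overlap, which held for 0.263% of all genes on the lower side, and the log2 change was -0.20 (SE 0.065, limma adjusted p = 1). edgeR called no collagen gene and 0.0% of all genes, and DESeq2 no collagen gene and 0.00548% of all genes. Col1a1 read 3235, 10930, 3142, 8068 and 4686 normalised counts (log2 change -0.47, SE 0.45) and Col3a1 3611, 18410, 3972, 15240 and 8053 (-0.31, SE 0.59), so that libraries 2 and 4 were high and the other 3 low for both. The median over the 38 genes was -0.14, and it was 0.09 without untreated library 5 and 1-day library 2.

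Under the lymph node label no collagen gene passed the limma test at any time. After 1 day, with 2 treated libraries, the smallest p was that of Col4a2, which read 3140, 3791 and 3420 normalised counts untreated and 2150 and 2283 at 1 day. Both treated libraries lay below all 3 untreated ones (log2 change -0.63, SE 0.16, limma adjusted p = 0.0686). Col4a1, its partner, read 893, 1139 and 1157 against 734 and 790 (-0.47, SE 0.16, limma adjusted p = 0.177). Col3a1 read 2017, 2856 and 3000 against 1355 and 1599 (-0.81, SE 0.22, limma adjusted p = 0.0829). Of the 6 type VI genes, 3 were lower without overlap, as were 15.5% of all genes. Col6a3 read 282, 417 and 417 against 210 and 196 (-0.85, SE 0.24, limma adjusted p = 0.104), and Col1a1 read 415, 597 and 494 against 301 and 338 (-0.64, SE 0.22, limma adjusted p = 0.169). Col1a2, at 2270, 2639 and 2730 against 2055 and 2403, overlapped (-0.19, SE 0.18).

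Of the 36 tested genes, 0 passed at 1 day against 1.21% of all genes, and 8 had an unadjusted p under 0.05. Of these 7 were lower, against 6.71% of all genes, and 1 was higher, against 8.26%. Without overlap, 13 were lower in both treated libraries, against 15.5% of all genes, and 5 were higher, against 17.1%. edgeR called no collagen gene (1.22% of all genes), and DESeq2 called 2, Col4a2 and Col6a3 (2.99% of all genes). With the untreated and 1-day libraries fitted alone 3 were called, Col4a2, Col3a1 and Col6a3, all lower, against 1.59% of all genes, and 7 by the rule of unadjusted p and 1.5-fold, against 4.91%. The libraries labelled lymph node at 1 day also held 1 library with pancreatic enzyme transcripts, where library 1 had a sum of 80520 normalised counts against 1093 in the other. Without any one of the 3 untreated libraries limma called no collagen gene. Leaving out either 1-day library also gave no call, but left 1 library in that group, which is then assumed to vary like the other groups, so this does not settle the part of the library with pancreatic transcripts.

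After 3 days under the lymph node label the type IV chains Col4a2 and Col4a1 had the smallest p. Col4a2 read 1857, 2643, 2930 and 2806 normalised counts and Col4a1 652, 869, 791 and 871, and all 4 treated libraries lay below all 3 untreated ones for both. The log2 changes were -0.45 (SE 0.14, limma adjusted p = 0.132) and -0.42 (SE 0.14, limma adjusted p = 0.161). Col5a1 read 180, 174 and 223 untreated and 123, 146, 121 and 167 at 3 days, also without overlap (-0.47, SE 0.16, limma adjusted p = 0.173), as did Col18a1 (-0.55, SE 0.22, limma adjusted p = 0.252). Col3a1, by contrast, read 1543, 2782, 2852 and 2040, within or below the untreated range (-0.21, SE 0.18). None of the 36 passed, against 1.24% of all genes, and 7 had an unadjusted p under 0.05. Of these 6 were lower, against 7.75% of all genes, and 1 was higher, against 7.04%. Without overlap 5 were lower, against 7.25% of all genes, and 1 was higher, against 8.09%. The higher one was Col28a1, with 102, 87.1 and 114 untreated and 116, 203, 144 and 132 at 3 days (0.53, SE 0.21, limma adjusted p = 0.247). edgeR called none (1.13% of all genes) and DESeq2 1, Col4a2 (2.78% of all genes), and the rule of unadjusted p and 1.5-fold also gave 1 (3.38%).

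After 14 days under the lymph node label Col3a1 had the smallest p, with 2254, 1736, 1690 and 1715 normalised counts. The highest of these lay within the untreated range and the other 3 below it (-0.49, SE 0.18, limma adjusted p = 0.266). Col4a2 read 3188, 3067, 2329 and 2514 (-0.32, SE 0.14) and Col1a1 530, 442, 359 and 352 (-0.26, SE 0.18), with overlap. None of the 36 passed, against 0.791% of all genes, and 3 had an unadjusted p under 0.05, all lower, against 6.62% of all genes on that side. Without overlap 3 were lower, against 6.02% of all genes. edgeR (0.878% of all genes) and DESeq2 (2.11%) called no collagen gene. The fold change was below 0 for 25, 27 and 27 of the 36 genes at 1, 3 and 14 days, with medians of -0.17, -0.19 and -0.24, and all 8 fibrillar and all 4 type IV genes were below 0 at 3 and at 14 days. The 3 treated groups share the same 3 untreated libraries, so these counts are not separate evidence of direction. The erythroid markers Hbb-bt, a beta globin, and Alas2, an enzyme of haem synthesis, fell at 3 days under this label. Hbb-bt had 252100 ± 93370 normalised counts untreated (SD, n = 3) and 79820 ± 41910 at 3 days (SD, n = 4; limma adjusted p = 0.0378), and Alas2 had 20430 ± 7086 and 6853 ± 3445 (limma adjusted p = 0.0452). The part of erythroid RNA in the collagen values was not tested.

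**Figure D5:**
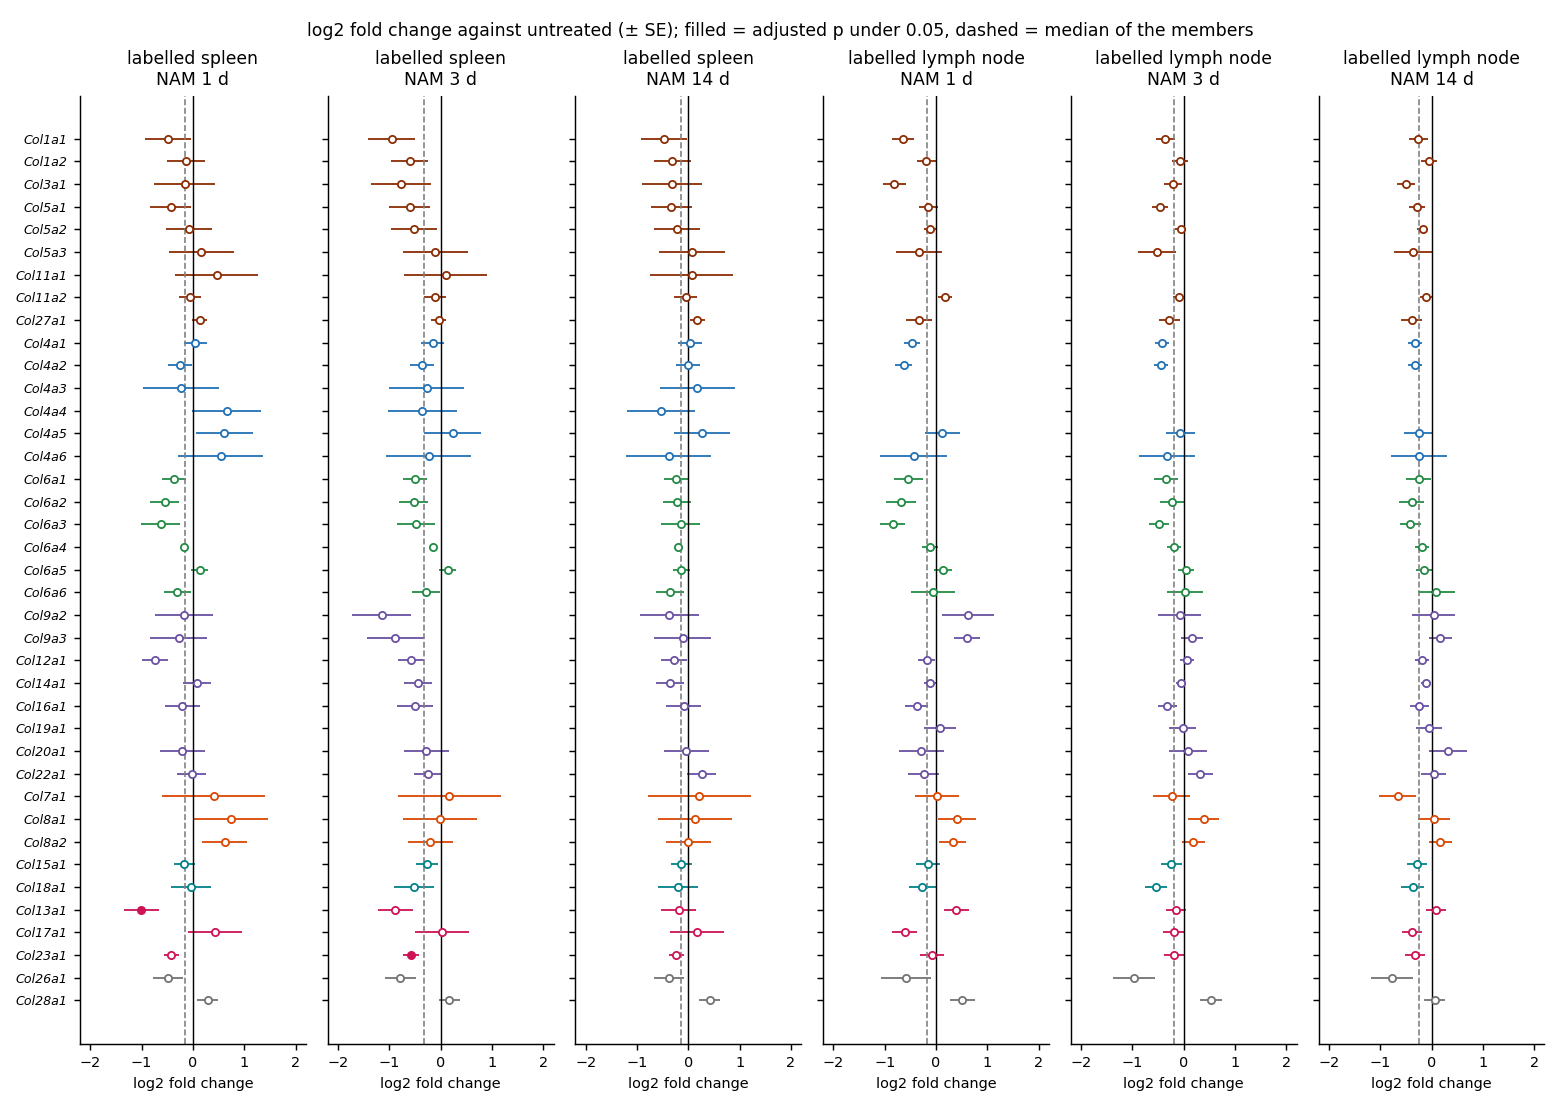
Log2 change against untreated libraries (x axes, points, with bars of 1 SE from limma) of each collagen gene (y axis) in the 6 comparisons. Filled points, Col13a1 at 1 day and Col23a1 at 3 days under the spleen label, passed the adjusted test, dashed lines mark the median of the genes, and most points in every panel lie left of 0.

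None of the remaining abundant collagens passed the main limma test in any comparison. With the adipocyte score as a covariate Col5a2, Col6a2 and Col18a1 were called lower at 1 and 3 days under the spleen label. With library weights Col6a2 was called lower at both times. The calls over all genes were 21.1% and 12.2% with the score and 21.6% and 25.9% with weights. Col5a2 of type V collagen had 2535 ± 2002 normalised counts in untreated libraries labelled spleen and 788 ± 119 in those labelled lymph node, Col6a2 2884 ± 1332 and 173 ± 8.9, Col15a1 1270 ± 434 and 108 ± 4.18, and Col18a1 1665 ± 1027 and 454 ± 60.2. Col14a1 read 398, 513, 322, 562 and 894 normalised counts in untreated libraries labelled spleen and 1854, 1868 and 2183 in those labelled lymph node. Its log2 changes lay between -0.44 and 0.08 under the spleen label and between -0.11 and -0.06 under the lymph node label, and none passed. With that label the groups did not overlap for Col6a2 and Col14a1 at 1 day, Col6a2 and Col18a1 at 3 days and Col15a1 at 14 days, each of them lower with NAM, as were 15.5%, 7.25% and 6.02% of all genes at 1, 3 and 14 days. Col8a2, with the highest fold among the genes tested under both labels that favoured the lymph node label, read 593, 426 and 561 without NAM. It read 662 and 644 after 1 day of it, 484, 533, 677 and 704 after 3 days and 838, 689, 339 and 614 after 14 days, so that the groups overlapped at 3 and 14 days and not at 1 day, when both treated libraries were higher, as were those of 17.1% of all genes.

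Ratios within a library were tested for the type I, IV and VI pairs in the 6 comparisons by exact permutation tests (two-sided), with p-values adjusted over these 18. None passed after adjustment. Col4a1 to Col4a2 lay between 0.283 and 0.31 in untreated libraries labelled spleen and between 0.325 and 0.397 at 1 day, without overlap and with a mean log2 difference of 0.29 (exact permutation p = 0.00794, the smallest that 5 against 5 can give, adjusted p = 0.0952). At 3 days the ratio was 0.341 ± 0.0317 against 0.295 ± 0.00962 (log2 difference 0.21, exact permutation p = 0.0159, adjusted p = 0.0952), and at 14 days the difference was 0.03 (exact permutation p = 0.278). Col1a1 to Col1a2 was 0.722 ± 0.0883 at 1 day and 0.721 ± 0.0472 at 3 days against 0.924 ± 0.121 (log2 differences -0.35 and -0.35, exact permutation p = 0.0238 and 0.0159, adjusted p = 0.107 and 0.0952). Under the lymph node label the same ratio differed by -0.45, -0.29 and -0.20 at 1, 3 and 14 days (exact permutation p = 0.2, 0.0571 and 0.343), where 0.2 and 0.0571 are the smallest p that 3 against 2 and 3 against 4 libraries can give. No test under this label could pass, and the groups did not overlap at 1 and 3 days. Under the spleen label a lone test at its smallest p could not pass over 18 tests either. Col6a1 to Col6a2 differed by 0.18 at 1 day under the spleen label (exact permutation p = 0.0873).

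The enzymes and partners of collagen were read from the same limma fit, where the called share of all genes in libraries labelled spleen was 16.6% after 1 day and 5.55% after 3 days of NAM, against 1.21% and 1.24% in those labelled lymph node. Of 18 genes for collagen synthesis and secretion, P4ha1, a prolyl hydroxylase subunit, rose by 0.26 (limma adjusted p = 0.033) at 1 day under the spleen label, and Mia3, which loads procollagen into secretory carriers, fell by 0.31 (adjusted p = 0.00903) at 1 day and by 0.26 (adjusted p = 0.0498) at 3 days. None of the 18 was called in the other 4 comparisons. Of the processing and cross-linking genes, Pcolce, an enhancer of procollagen C-proteinase, fell by 0.45 (limma adjusted p = 0.0477, 1 of 12) at 1 day under the spleen label, and Adamts3, a procollagen N-proteinase, fell by 0.94 (adjusted p = 0.0487, 1 of 11) at 3 days under the lymph node label. None of 15 basement membrane partners, 16 interstitial matrix partners or 11 matrix-degrading genes was called in any of the 6 comparisons. Among collagen receptors Itga10, an integrin subunit, rose by 0.37 (limma adjusted p = 0.00943, 1 of 10) at 1 day under the spleen label. Of 7 markers of lymphoid stroma, Cxcl13, the chemokine of follicular stroma, fell by 0.62 (adjusted p = 0.0155) at 1 day under the spleen label, whereas under the lymph node label Ccl21a rose by 0.90 (adjusted p = 0.0126) at 1 day and Ccl19 by 0.50 (adjusted p = 0.00918) at 3 days, both chemokines of T cell zone stroma. Ccl21a has near-identical copies among which reads may be split, so its count is uncertain. No vessel wall marker was called in any comparison, and the sum of these markers lay between 24940 and 38660 under the spleen label and between 16980 and 27080 under the lymph node label.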

How the data were processed

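The deposited table holds read counts that the authors had normalised with DESeq2, as a signal value per gene and library, with mm10 coordinates. The submitters' processing notes name STAR 2.4.0, Picard, SAMtools, FastQC and the same build, and the counting settings of this table are not given in the sources used here (the study describes counting over constitutive gene regions of FAST DB for other libraries). All values were whole multiples of the step that 1 read is worth (tolerance 0.1 read, 100.0% of values), which gave the depths and the recovered reads. log2(normalised count + 1) was fitted with limma 3.58.1 (trend; R 4.3.3) over the 4 groups of a label, for genes with a mean of at least 10, with Benjamini-Hochberg adjustment over 18243 (labelled spleen) or 18215 genes and a threshold of 0.05. Log2 changes are on that scale and understate changes of low genes. edgeR 4.0.16 and DESeq2 1.42.0 were alternatives on the recovered reads. The adipocyte score is the mean log2 value of 8 genes. Permutation tests used numpy 2.4.6, with ranks from scipy 1.17.1. The limma fit was tested on simulated reads whose replicates varied less than the collagen genes commonly did under the spleen label. All 56 pairs of replicates differed beyond sampling noise (lowest chi-square per degree of freedom 8.93). Named were the 13 major collagens, every called gene, the smallest p where none was called, and the highest level per length in each class; Col5a3, Col6a4, Col8a2, Col11a2, Col12a1, Col19a1, Col23a1 at 1 day and Col28a1 at 3 days were added after their values were seen. The members and lists were chosen with earlier results of these data known. A marker result is not reported here.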

Additional observations from a re-analysis of the deposited data

Results flagged for a closer look

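Single libraries far from the rest of their group were found in 16 of 114 sets of 4 or 5 libraries. For a single set chance gives about 1 in 20. The sets are genes and ratios read in the same few libraries, so the 16 are not separate events and cannot be set against that rate. Library 2 at 1 day under the spleen label was high for Col1a1 (14560 normalised counts, others 3137 to 5107), Col1a2 (16610, others 4661 to 7158), Col3a1 (31320, others 4312 to 9476), Col4a1 (4097, others 1913 to 2532), Col5a1 (2493, others 633 to 1047), Col5a2 (4611, others 1279 to 1872), Col6a3 (2073, others 513 to 801) and Col13a1 (144, others 35.6 to 62.5). Its ratio of Col1a1 to Col1a2 was 0.876, with the others at 0.661 to 0.713. The same library had the highest adipocyte and epithelial marker sums of its group, and their part in these values was not tested.

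Untreated library 5 under the spleen label was high for Col15a1 (2025, others 982 to 1241) and Col13a1 (260, others 82 to 117). Library 4 at 3 days under the spleen label was low for Col5a1 (653, others 988 to 1105) and Col5a2 (892, others 1485 to 1628). Library 2 at 14 days under that label had a ratio of Col4a1 to Col4a2 of 0.317, with the others at 0.295 to 0.3. Under the lymph node label, library 1 at 14 days was high for Col3a1 (2254, others 1690 to 1736) and library 1 at 3 days was low for Col6a3 (170, others 295 to 304). No gene moved in opposite directions in every library of the 2 labels (0 of 48 comparisons looked at).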

How the results depend on the processing

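The count of collagen genes called at 1 day under the spleen label (1) became 0 without the filter on low genes, with the replicate block and with 2 groups fitted alone, 2 with a filter of 50, under the rule of unadjusted p and 1.5-fold and without both high libraries, 3 with quantile normalisation and with DESeq2, 6 with library weights and 13 with the adipocyte score. At 3 days (1) it became 0 without the filter and with 2 groups alone, 2 with DESeq2, 3 under the rule of unadjusted p, 9 with weights and 12 with the score. Under the lymph node label 0 became 2 (DESeq2), 3 (2 groups alone) and 7 (unadjusted p) at 1 day and 1 (DESeq2 and unadjusted p) at 3 days. Leaving out each library gave 0 to 3 and 0 to 2 calls at 1 and 3 days under the spleen label. The causes were not tested. The adipocyte correlation with Col1a1 was 0.37 and 0.54 without the 2 farthest libraries.

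Direction changed only among values that had not passed. Col4a1 at 1 day under the spleen label was -0.011 with quantile normalisation, -0.19 with weights and -0.35 with the score, and at 14 days -0.079 and -0.13 with the latter 2. Without both high libraries, which was chosen after seeing the data, Col3a1 at 14 days was 0.12 and Col4a2 0.15. Col1a2 under the lymph node label was 0.080 at 3 days with the score, and 0.0079 and 0.054 at 14 days with weights and the score. Leaving out each library gave, at 1 day under the spleen label, -0.62 to 0.27 for Col3a1, -0.43 to 0.17 for Col1a2 and -0.13 to 0.19 for Col4a1, and at 14 days -0.73 to 0.12 for Col3a1, -0.11 to 0.15 for Col4a2 and -0.080 to 0.18 for Col4a1. Col1a2 under the lymph node label ranged from -0.17 to 0.076 (3 days) and from -0.13 to 0.069 (14 days). The log2 ratio of Col4a1 to Col4a2 under the lymph node label ranged from -0.024 to 0.10 (3 days) and from -0.062 to 0.063 (14 days). That of Col6a1 to Col6a2 ranged under the spleen label from -0.012 to 0.077 (3 days) and from -0.049 to 0.040 (14 days), and under the lymph node label from -0.13 to 0.41 (1 day).

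Replicate numbers did not pair the libraries. Correlations of same-numbered libraries' deviations ranged from -0.50 to 0.47 over 30 pairs under the spleen label, with 13 over 0.1, and from -0.11 to 0.08 over 16 pairs under the lymph node label. With the replicate block, 0 collagen genes were called at 1 day under the spleen label. The wide spread of the collagen genes under the spleen label and the 2 libraries at 1 day under the lymph node label limit what could be detected.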
